A study of Mus musculus with 6 samples.

Results

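The report concerns the accessible sites of blood stem cells that lie far from any protein-coding gene. A site belongs to this set when its midpoint is outside every protein-coding gene body of the RefSeq annotation of mm10 and over 50 kb from the nearest end of such a gene. By this rule, which uses position and no measured level, 4293 of 42632 peaks (10.1%) were far intergenic. ATAC-seq, in which a transposase cuts and tags open DNA, was run on long-term haematopoietic stem cells (LT-HSCs) of C57BL/6 mice that were 10 to 16 weeks old. The cells came from bone marrow and were sorted as negative for lineage markers, CD34 and Flt3 and positive for Sca1 and cKit. Confined cells (3 libraries) spent 13 h in suspension, attached to fibronectin-coated glass for 0.5 h, were held for 2 h under a coverslip on pillars of 5 µm, and were taken off the glass with a dissociation reagent. Unconfined cells (3 libraries) stayed in suspension for 16 h. Attachment and detachment went with confinement, so these steps and confinement cannot be told apart. The labels number the libraries of each group by an experimental batch, with 1 library of each group per batch, and do not say whether each came from separate animals.

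Most distal accessible sites in mammalian cells are enhancers, stretches of DNA that bind transcription factors and act on a promoter that can be far away along the chromosome. Genes of cell identity often have several enhancers in the gene-poor DNA around them, and the nearest gene is not always the one an enhancer acts on. Noncoding genes, antigen receptor loci and microRNA clusters also lie in such DNA. A gene name given to a peak here means only the nearest protein-coding gene end.

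The far intergenic set included starts of noncoding genes. Of its 4293 peaks, 1200 (28.0%) had their midpoint inside a gene of another type, 1062 (24.7%) of them inside a long noncoding RNA (lncRNA) gene and 49 inside a pseudogene, and 467 (10.9%) lay within 1 kb of an end of some annotated gene. Promoter windows of RefSeq (GRCm38.p6, the assembly also called mm10), which run from 250 bases before a gene's start to 50 after it, lay wholly inside 122 far peaks. The peaks' own sequence was not used here, so these windows stand in for it at 4 lncRNA genes whose peaks are described further on. They are written 5′ to 3′ on the gene's strand, with the core motifs found on either strand in capitals. An ETS core was read as CCGGAA, with a second form written CAGGAA, and a RUNX core as the letters TGTGGT. The GATA core searched was AGATAA, while for AP-1 the heptamer TGACTCA was used, which on the other strand reads TGAGTCA, and for the E-box the palindrome CAGCTG was used. The Gm35551 window (chr17:84025970-84026269, minus strand) and the Gm34507 window (chr17:4908072-4908371, plus strand) lie in peaks that were lower in confined cells. Gm35551 has several annotated starts, and its window is that of an internal one. The 1700011C11Rik window (chr7:71960925-71961224, plus strand) lies in a peak that was higher. The 4930554I06Rik window (chr19:21104460-21104759, plus strand) lies in the far peak with the highest unconfined level.
Gm35551: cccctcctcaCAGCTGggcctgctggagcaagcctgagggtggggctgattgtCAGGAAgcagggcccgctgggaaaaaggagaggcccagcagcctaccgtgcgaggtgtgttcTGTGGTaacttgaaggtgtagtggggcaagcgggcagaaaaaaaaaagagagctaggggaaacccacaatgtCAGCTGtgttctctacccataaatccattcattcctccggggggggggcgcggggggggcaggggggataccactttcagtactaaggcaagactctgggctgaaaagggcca
Gm34507: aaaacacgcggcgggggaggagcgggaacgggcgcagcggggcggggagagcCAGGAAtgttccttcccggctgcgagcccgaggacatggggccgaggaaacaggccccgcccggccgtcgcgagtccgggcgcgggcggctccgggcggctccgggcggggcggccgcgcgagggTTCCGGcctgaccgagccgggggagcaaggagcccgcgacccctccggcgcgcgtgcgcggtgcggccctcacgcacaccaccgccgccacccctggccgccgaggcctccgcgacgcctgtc
1700011C11Rik: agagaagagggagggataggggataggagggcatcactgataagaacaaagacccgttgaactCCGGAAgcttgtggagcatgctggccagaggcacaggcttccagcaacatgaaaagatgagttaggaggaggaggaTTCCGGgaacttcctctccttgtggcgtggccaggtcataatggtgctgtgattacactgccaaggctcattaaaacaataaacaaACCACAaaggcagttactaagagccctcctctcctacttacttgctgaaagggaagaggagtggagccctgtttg
4930554I06Rik: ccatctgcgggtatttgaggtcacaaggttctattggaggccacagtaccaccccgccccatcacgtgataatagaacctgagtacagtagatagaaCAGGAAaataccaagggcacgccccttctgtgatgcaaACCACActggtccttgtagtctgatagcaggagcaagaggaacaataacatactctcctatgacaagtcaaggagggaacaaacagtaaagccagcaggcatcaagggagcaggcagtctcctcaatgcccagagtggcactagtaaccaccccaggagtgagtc

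The Gm35551 window held 1 ETS, 1 RUNX and 2 E-box cores, the Gm34507 window 2 ETS cores, the 1700011C11Rik window 2 ETS cores and 1 RUNX core, and the 4930554I06Rik window 1 ETS and 1 RUNX core. ETS and RUNX proteins are transcription factor families of blood stem cells. Over the 133 promoter windows inside far peaks, 58.6% held an ETS core, against 50.3% of 8233 windows inside other peaks and 41.4% of all 32851 windows. A RUNX core was found in 36.8% of the windows in far peaks, 12.3% of those in other peaks and 16.8% of all windows. For AP-1 these shares were 12.0%, 3.66% and 5.20%, for GATA 11.3%, 5.21% and 11.2%, and for the E-box 19.5%, 14.7% and 16.3%. Each is the share of windows with at least 1 match, a description with no test, and a match is not a binding site.

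One far peak that was lower in confined cells lies beside the miR-17-92 cluster, a set of microRNAs made from 1 transcript (Mir17hg) and known for promoting growth and survival in blood cells. Its nearest protein-coding gene, Gpc5, is 51.6 kb away, whereas the mature miR-17-5p lies 2751 bases beyond the peak's end. The other far peaks within 5 kb of a mature microRNA had no call by edgeR. Their log2 fold changes went both ways, from -1.34 to 1.51, so this peak stands for no group. The mature sequences, from RefSeq, are shown to identify the cluster, with the seed (bases 2 to 8), which pairs with target RNAs, in capitals.
miR-17-5p: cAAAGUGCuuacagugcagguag
miR-20a-5p: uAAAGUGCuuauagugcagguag
miR-18a-5p: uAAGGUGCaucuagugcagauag
miR-19a-3p: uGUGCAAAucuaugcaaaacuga
miR-19b-3p: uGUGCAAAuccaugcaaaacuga
miR-92a-3p: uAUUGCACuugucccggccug
Of these, miR-17-5p and miR-20a-5p share a seed, as do miR-19a-3p and miR-19b-3p.

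The libraries differed in depth and in how much pattern they held. Total counts in peaks were 340922, 221390 and 128257 in confined libraries 1 to 3 and 304898, 1229478 and 983863 in unconfined libraries 1 to 3, so a count of 3 at 1 peak came to 8.80, 13.6 and 23.4 CPM (counts normalised to library size) in confined and to 9.84, 2.44 and 3.05 CPM in unconfined libraries. Across the 4293 far peaks, Pearson's r of log2(CPM + 1) was 0.0297 to 0.0678 between confined libraries and 0.519 to 0.707 between unconfined ones. Against the unconfined libraries, r was 0.301 to 0.451 for confined library 1, 0.0350 to 0.0645 for library 2 and 0.0207 to 0.0276 for library 3, so confined libraries 2 and 3 stood apart. These correlations are across peaks of the same libraries and fall with depth, so they are a description. Values without confined libraries 2 and 3 are given for some results, but not for most single peaks. Of the sort and stem cell marker genes, Kit, Procr, Cd34 and Flt3 had a peak within 1 kb of a gene end and Ly6a (Sca1), Slamf1 and Cd48 had none.

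Far intergenic peaks took a larger part of the counts in confined cells. They held 8.88%, 10.5% and 10.3% of the counts in confined libraries 1 to 3 (95% Clopper-Pearson intervals 8.78 to 8.97, 10.4 to 10.7 and 10.2 to 10.5), against 7.43%, 7.72% and 7.11% in unconfined libraries 1 to 3 (7.34 to 7.53, 7.67 to 7.77 and 7.06 to 7.16). The groups did not overlap, and each confined library was above the unconfined library of its batch, by 1.44, 2.81 and 3.21 percentage points. The means were 9.91% ± 0.902 in confined and 7.42% ± 0.306 in unconfined cells (SD, n = 3 each), a difference of 2.49 points with an exact permutation p = 0.1 (two-sided), the smallest possible with 3 libraries per group. Without confined libraries 2 and 3 it was 1.45 points, and the within-batch test by sign flips gave an exact p = 0.25, the smallest for 3 pairs. Intervals cover counting error only.

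This rise was shared by the other peaks away from gene ends. Intergenic peaks 1 to 50 kb from a gene (9809 peaks) took 5.15 points more of the counts in confined cells and peaks inside gene bodies (17257) took 7.01 points more, while peaks within 1 kb of a gene end (11273) took 14.6 points less. These shares are parts of 1 whole in each library, so a fall in 1 class comes with a rise in others. With edgeR's TMM scaling, mean CPM per far peak was 19.7, 23.4 and 20.9 in confined and 18.8, 18.2 and 19.0 in unconfined libraries. By total counts the gap was wider, with 23.1 ± 2.10 in confined and 17.3 ± 0.713 in unconfined cells (SD, n = 3 each). Per other intergenic peak, also by total counts, it was 23.8 ± 1.48 in confined and 18.6 ± 0.797 in unconfined cells (SD, n = 3 each). The ratio of these levels, far over other intergenic, was 0.934, 1.00 and 0.967 in confined libraries and 0.935, 0.928 and 0.931 in unconfined libraries. The groups overlapped in this ratio (exact permutation p = 0.2, two-sided). Of the counts outside gene-end peaks, far peaks held 13.4% ± 0.509 in confined and 12.6% ± 0.0743 in unconfined cells, with no overlap (exact permutation p = 0.1, the smallest possible). Confined libraries 1 to 3 were above the unconfined library of their batch by 0.225, 1.27 and 1.09 points.

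**Figure D1:**
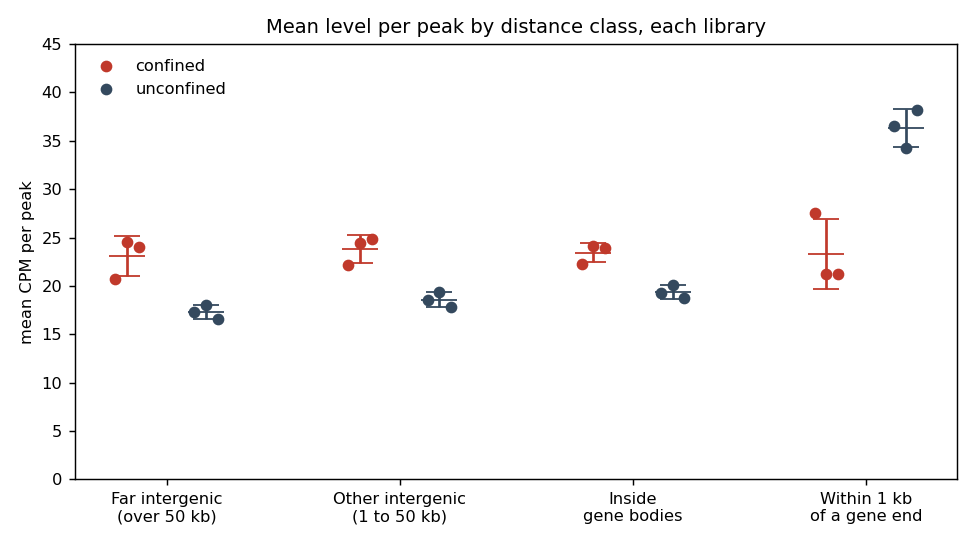
Mean CPM per peak, scaled by total counts (y axis), in each library for 4 distance classes of peaks (x axis), with confined libraries left of unconfined ones; points are libraries, bars the mean and SD of 3. In far intergenic peaks the confined libraries lie between 20.7 and 24.5 CPM and the unconfined libraries between 16.6 and 18 CPM, and only peaks within 1 kb of a gene end are lower in confined cells.

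On a log scale, the level of far peaks relative to other intergenic peaks differed between the groups by less than the spread between libraries. Mean log2(CPM + 1) of far peaks minus that of other intergenic peaks was -0.07 ± 0.06 in confined and -0.08 ± 0.02 in unconfined libraries (SD, n = 3 each), a difference of 0.005 (exact permutation p = 1, two-sided). Without confined libraries 2 and 3 this difference was -0.028. Within 5 equal classes of all peaks ranked by mean log2(CPM + 1) over the 6 libraries (each 20%), the difference between the groups lay between -0.074 and 0.036, and the groups overlapped in all 5 (exact permutation p, Benjamini-Hochberg adjusted over the 5 classes, 0.5 to 0.7). A p that misses the threshold does not show that both kinds of peak respond alike.

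**Figure D2:**
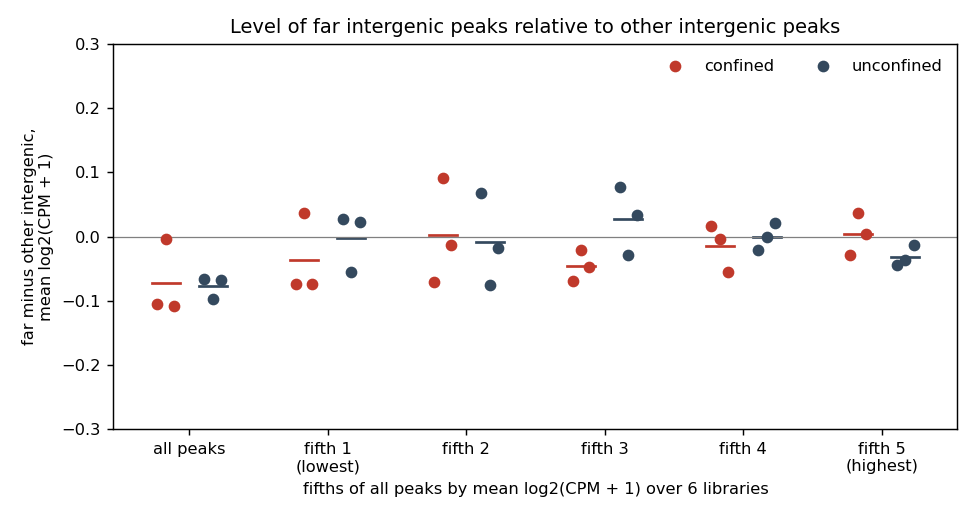
Mean log2(CPM + 1) of far minus other intergenic peaks (y axis), over all peaks and in 5 equal classes of peaks by level (x axis), with confined libraries left of unconfined ones; points are libraries and lines are group means. The groups overlap over all peaks, where their means differ by 0.005.

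By distance, confined cells had a slightly smaller part of their far counts at 50 to 250 kb and a larger part at 250 to 500 kb, by amounts that rested largely on confined libraries 2 and 3. Peaks 50 to 100 kb from a gene (1937 peaks) held 45.8% ± 0.575 of far counts in confined and 46.3% ± 0.141 in unconfined cells, and peaks 100 to 250 kb away (1600) held 36.9% ± 1.33 in confined and 38.2% ± 0.308 in unconfined cells. Peaks 250 to 500 kb away (547) held 12.7% ± 1.09 in confined and 11.1% ± 0.222 in unconfined cells, and those over 500 kb away (209) held 4.58% ± 0.214 in confined and 4.40% ± 0.160 in unconfined cells (SD, n = 3 each). The groups overlapped only in the farthest class, but came close in the 2 nearest ones. At 50 to 100 kb confined library 1 had 46.193% and unconfined library 3 had 46.195%. At 100 to 250 kb confined library 1 had 37.91% and unconfined library 2 had 37.93%. The exact permutation p, Benjamini-Hochberg adjusted over 4 classes, was 0.133, 0.133, 0.133 and 0.3 (two-sided), and 3 libraries per group cannot pass 0.05. Without confined library 2 the 50 to 100 kb difference was -0.124 points, against -0.455 with all libraries, and without confined library 3 the differences were -0.535 points for 100 to 250 kb and 1.03 for 250 to 500 kb, against -1.29 and 1.56 with all libraries. Without confined libraries 2 and 3 the 3 nearer classes differed by -0.0918, -0.283 and 0.435 points. Just outside the 50 kb limit, 331 peaks at 45 to 50 kb averaged 23.3 CPM in confined and 18.1 CPM in unconfined cells, with a median log2 fold change of 0.34. Just inside it, 290 peaks at 50 to 55 kb averaged 23.3 CPM in confined and 18.9 CPM in unconfined cells, with a median of 0.28.

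Far peaks that stood high in unconfined cells stood out less in confined cells. The 10% of far peaks that stood highest in the other unconfined libraries had 2.58, 1.10 and 1.11 times the mean CPM of the lowest 10% in confined libraries 1 to 3, against 4.76, 3.38 and 5.14 times in unconfined libraries 1 to 3. The groups did not overlap. Since the ranking came from unconfined libraries, this ratio measures in confined libraries how far they share it, not how alike their own peaks are. For other intergenic peaks these ratios were 2.50, 1.13 and 1.07 in confined and 5.60, 3.58 and 5.89 in unconfined libraries. The squared coefficient of variation between far peaks beyond counting noise, which uses no ranking, was 0.202, 0.165 and 1.28 in confined libraries and 0.714, 0.340 and 0.725 in unconfined libraries, with overlap (means of 0.548 in confined and 0.593 in unconfined libraries). Without the 1% highest peaks it was 0.145, 0.0984 and 0.193 in confined libraries, against 0.440, 0.228 and 0.503 in unconfined libraries, with no overlap.

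At single peaks, 89 of 4293 far peaks (2.07%) were higher and 42 (0.978%) lower in confined than in unconfined cells, by edgeR's quasi-likelihood test with p adjusted over all 42632 peaks (Benjamini-Hochberg, under 0.05). Over all peaks, 1.47% were called higher and 4.27% lower, 5.74% in either direction. Other intergenic peaks gave 2.28% higher and 1.35% lower, peaks at gene ends 0.293% higher and 11.7% lower, so the far peaks lay near the other intergenic ones. The median log2 fold change was 0.35 for far, 0.33 for other intergenic and 0.12 for all peaks, and with scaling by total counts, which moves all peaks up, it was 0.55, 0.53 and 0.32. Of the far peaks, 68.0% had a positive log2 fold change. All 42 lower calls and 74 of the 89 higher calls had the same sign in all 3 batches, as did 1818 of 1821 lower and 557 of 627 higher calls over all peaks.

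These calls depended on single libraries and on whether the batch number was in the fit. With the batch number as a replicate block, 17 higher and 4 lower calls remained, and the 38 lower calls lost had edgeR adjusted p of 0.0516 to 0.113. Leaving out confined library 1 gave 155 higher and 151 lower far calls, without confined library 2 there were 6 and 1, and without confined library 3 there were 34 and 12. Leaving out unconfined library 1 gave 24 higher and 5 lower calls, and without unconfined library 2 there were 25 and 12. Without unconfined library 3 no far peak was called by edgeR. At an unadjusted p under 0.05 there were then 303 higher and 116 lower, against 533 and 186 with all libraries. Counts over all peaks moved too, from 627 higher and 1821 lower to 84 and 132 with the block. They were 1165 and 4340, 43 and 19, and 196 and 494 without confined libraries 1, 2 and 3 in turn. For unconfined libraries 1 to 3 in turn they were 118 and 160, 179 and 559, and 0 and 1. DESeq2 gave 97 and 2273 over all peaks. Without confined libraries 2 and 3, 1 far peak was called higher and none lower by edgeR, with 169 and 134 at an unadjusted p under 0.05, and DESeq2 on all libraries called 15 higher and 57 lower.

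Most lower calls lay among high peaks, while the higher calls were spread over all levels. The 42 lower peaks had median levels of 17.8 CPM in confined and 66.3 CPM in unconfined cells, and 23 of them were among the 20% of all peaks with the highest mean level over the 6 libraries, a class that holds 481 of the 4293 far peaks. The 89 higher peaks had median levels of 37.0 CPM in confined and 10.4 CPM in unconfined cells, and 15, 20, 15, 24 and 15 of them lay in the 5 level classes from the lowest to the highest, where the lower peaks numbered 1, 3, 7, 8 and 23. Of the higher peaks, 13 had a library with no count among the unconfined ones. These levels enter the fold change too, so they are a description. Peaks with no call had 20.2 CPM in confined and 14.4 CPM in unconfined cells. Of the lower peaks, 18 (42.9%) lay inside a lncRNA gene, against 19 (21.3%) of the higher peaks and 24.6% of those with no call. The median log2 fold change of far peaks was 0.35, 0.54, 0.45, 0.20 and -0.44 from the lowest to the highest of the 5 level classes, and other intergenic peaks gave 0.38, 0.52, 0.51, 0.24 and -0.47.

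**Figure D3:**
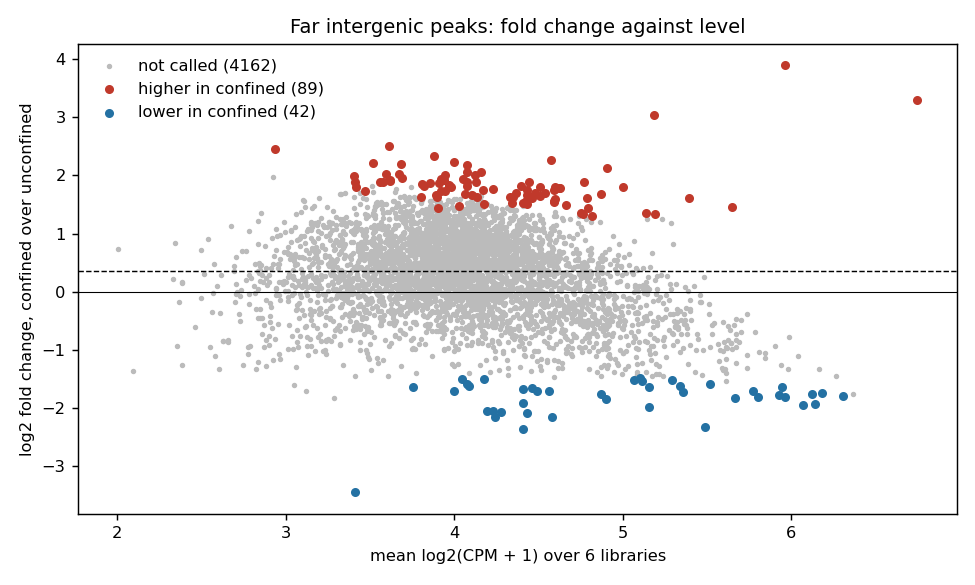
Log2 fold change of confined over unconfined cells (y axis) against mean log2(CPM + 1) over 6 libraries (x axis) for 4293 far intergenic peaks; red points are the 89 higher calls, blue points the 42 lower calls, and the dashed line is the median of 0.35. Of the lower calls, 23 are among the 20% of all peaks with the highest level, and higher calls occur at all levels.

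Among lower peaks, the one with the smallest p lay 63.4 kb from Khdrbs3, which encodes an RNA-binding splicing regulator (chr15:69164858-69165557). It held 0, 1 and 1 counts in confined libraries 1 to 3, against 9, 36 and 31 in unconfined libraries 1 to 3. All confined libraries were below all unconfined ones, and with 2 confined counts in all the ratio of confined to unconfined cells, scaled by library size, was 0.0840 (95% counting interval 0.0100 to 0.314). The fitted log2 fold change of -3.46 (SE 0.74, edgeR adjusted p = 0.00531, and 0.0487 with the batch as a block) depends on the prior count at such levels.

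Peaks near regulators of transcription followed. The peak 82.1 kb from Med13l, a Mediator kinase module subunit (chr5:118477900-118478599), held 7, 3 and 0 counts in confined and 28, 69 and 53 in unconfined libraries, with a log2 fold change of -2.36 (SE 0.55, edgeR adjusted p = 0.00815, and 0.0487 with the block). A peak 147 kb from Setbp1, a gene mutated in human myeloid disease, held 5, 6 and 0 counts in confined and 22, 66 and 56 in unconfined libraries (-2.10, SE 0.53, edgeR adjusted p = 0.0126, and 0.0574 with the block). Neither overlapped between the groups after scaling. The peak 157 kb from Ctnnb1, which encodes beta-catenin, the effector of Wnt signalling (chr9:120776505-120777204), averaged 20.6 ± 18.8 CPM in confined and 124 ± 33.6 CPM in unconfined cells (SD, n = 3 each; -2.32, SE 0.57, edgeR adjusted p = 0.0115, and 0.0516 with the block).

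Several lower peaks lay inside lncRNA genes. A peak 109 kb from Jun, an AP-1 subunit (chr4:95161070-95161769), lies in Junos, the lncRNA beside Jun, and held 8, 2 and 0 counts in confined and 20, 57 and 57 in unconfined libraries. Its log2 fold change was -2.16 (SE 0.53, edgeR adjusted p = 0.0112, and 0.0497 with the block). Another Junos peak, 54.0 kb from Jun, held 24, 2 and 2 counts in confined and 9, 53 and 52 in unconfined libraries (-0.42, edgeR adjusted p = 0.607). The groups overlapped after scaling through confined library 1, at 67.2 CPM. Confined libraries 2 and 3 had 8.60 and 13.6 CPM, and unconfined libraries 32.1, 43.6 and 60.7 CPM. Without confined library 1 this peak was called lower (edgeR adjusted p = 0.0104). A peak inside Firre, an X-linked lncRNA of nuclear architecture (chrX:50602437-50603136), held 10, 0 and 1 counts in confined and 21, 56 and 60 in unconfined libraries (-2.08, SE 0.53, edgeR adjusted p = 0.0126, and 0.0497 with the block).

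The peak inside Gm35551 that holds the promoter window printed above (chr17:84025908-84026607, 158 kb from Zfp36l2) has its midpoint 6473 bases from the nearest end of that gene. It held 8, 1 and 1 counts in confined and 14, 55 and 71 in unconfined libraries, with a log2 fold change of -2.17 (SE 0.53, edgeR adjusted p = 0.0112, and 0.0568 with the block). The peak at Gm34507 (chr17:4907964-4908663, 86.0 kb from Arid1b, a chromatin remodeller subunit) averaged 11.2 ± 3.89 CPM in confined and 43.0 ± 9.66 CPM in unconfined cells (-1.72, SE 0.52, edgeR adjusted p = 0.0317, and 0.0698 with the block). The peak beside the miR-17-92 cluster (chr14:115040233-115040932) held 4, 1 and 2 counts in confined and 6, 47 and 44 in unconfined libraries. Its scaled level was 9.69 ± 4.81 CPM in confined and 37.1 ± 15.0 CPM in unconfined cells, with no overlap (-2.05, SE 0.55, edgeR adjusted p = 0.0166, and 0.0801 with the block).

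**Figure D4:**
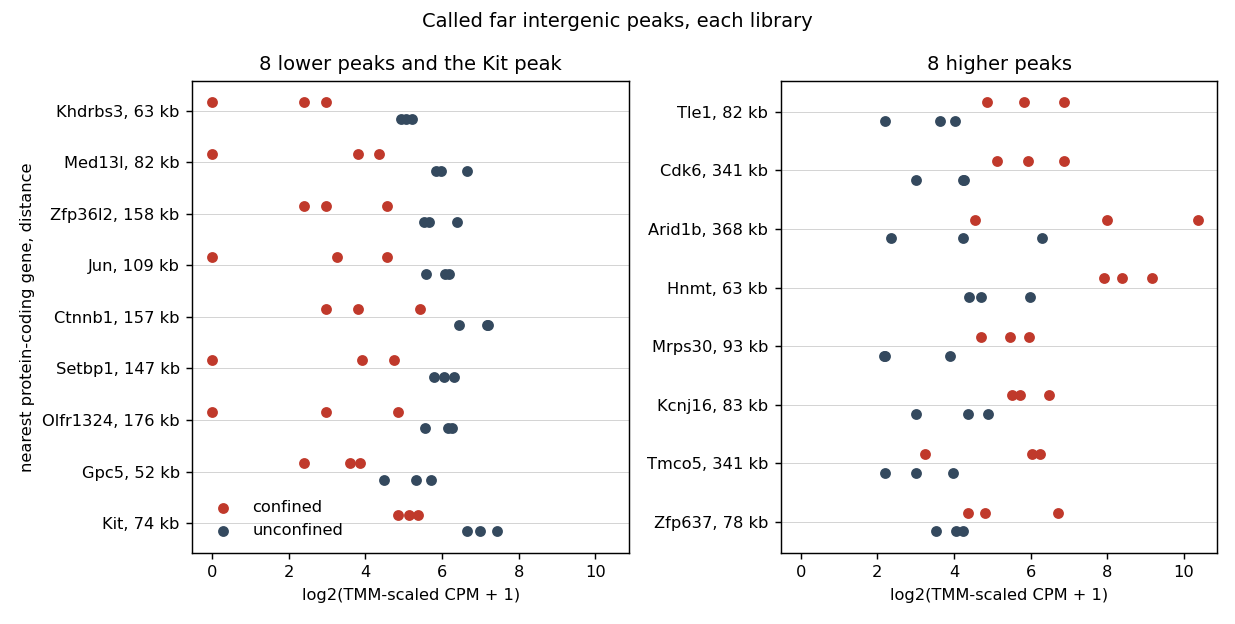
Log2(TMM-scaled CPM + 1) (x axis) in each library for the 8 lower far peaks (left panel, with the Kit peak) and the 8 higher far peaks (right panel) with the smallest p among calls of the same sign in all 3 batches, named by the nearest protein-coding gene and its distance (y axis); in each row confined libraries are above unconfined ones. The groups are apart in every lower row, and overlap in 2 of these 8 higher rows, nearest Arid1b and Tmco5.

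The far peaks with the highest unconfined level were chosen by that level, so a lower confined level is in part built into the choice, and their values are a description with no test. The peak at the start of the lncRNA 4930554I06Rik, whose promoter window is printed above (nearest Tmc1), had 92.5, 17.2 and 33.9 CPM in confined and 243, 120 and 180 CPM in unconfined libraries (log2 fold change -1.76). A peak 145 kb from Reep3, a protein of the endoplasmic reticulum, averaged 37.0 ± 27.5 CPM in confined and 163 ± 46.9 CPM in unconfined cells (SD, n = 3 each; log2 fold change -1.94). The peaks nearest Haao, Cyria and Uaca had log2 fold changes of -1.80, -1.76 and -1.75.

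At stem cell loci, the far peak with the highest mean level on the list was lower. A peak 74.3 kb from Kit, the receptor for stem cell factor and a marker of the sort (chr5:75730623-75731322), held 10, 8 and 6 counts in confined and 48, 120 and 108 in unconfined libraries. The levels were 34.4 ± 6.34 CPM in confined and 132 ± 36.6 CPM in unconfined cells (SD, n = 3 each), with no overlap (log2 fold change -1.95, SE 0.57, edgeR adjusted p = 0.0270, and 0.0841 with the block). The other 6 far peaks of Kit had no call, and the median of all 7 was -0.09. A peak 142 kb from Cdk6, a cell cycle kinase, averaged 31.7 ± 35.7 CPM in confined and 110 ± 19.5 CPM in unconfined cells and missed the threshold by edgeR but not by DESeq2 (-1.54, edgeR adjusted p = 0.0562, DESeq2 adjusted p = 0.0236).

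Over the 34 genes of a list of stem cell regulators, 16 had far peaks, 111 in all. Of these, edgeR called 1 higher and 1 lower (0.901% each), beside 2.07% higher and 0.978% lower over all far peaks. DESeq2 called 1 higher and 4 lower, beside 15 and 57 of all 4293 far peaks. The median log2 fold change was 0.28, against 0.35 over all far peaks. Id2, an inhibitor of helix-loop-helix factors, had 18 such peaks (median 0.13), Sox4 had 15 (0.60), Myc 11 (0.45) and Runx1 9 (-0.10), all with no call. The higher call, nearest Cdk6 but 341 kb away, is inside the pheromone receptor pseudogene V1rg10 (chr5:3000146-3000845), where the assembled sequence of the chromosome begins. It held 12, 14 and 17 counts in confined and 5, 22 and 6 in unconfined libraries (2.13, SE 0.43, edgeR adjusted p = 0.00259, and 0.0422 with the block).

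The lymphoid and myeloid gene lists had higher calls at 2.08% and 1.75% of their far peaks, and the myeloid list had lower calls at 3.51%, beside 2.07% higher and 0.978% lower over all far peaks. Lymphoid genes had 48 far peaks at 12 of 26 genes, 1 higher and none lower by edgeR (2 and 2 at an unadjusted p under 0.05, none by DESeq2; median log2 fold change 0.14), the higher one 53.0 kb from Lef1, a Wnt-pathway factor of lymphocytes (log2 fold change 1.45, edgeR adjusted p = 0.0478, and 0.0980 with the block). Myeloid genes had 57 far peaks at 9 of 22 genes, 1 higher and 2 lower by edgeR and none higher and 4 lower by DESeq2 (median 0.18). The lower ones lay at Gm35551 and 119 kb from Klf4, a zinc finger factor of monocytes (-1.92, edgeR adjusted p = 0.0174, and 0.0605 with the block). Among all 4293 far peaks, DESeq2 called 15 higher and 57 lower. At an unadjusted p under 0.05 by edgeR, 533 were higher and 186 lower. None of 19 erythroid and megakaryocyte genes had a far peak. Named peaks without a call by edgeR had log2 fold changes of -0.95 nearest Gata3, -0.72 nearest Ptprc, -1.40 nearest Bcl6 and -1.33 for the strongest peak nearest Zfp36l2. DESeq2 called the Bcl6 peak and this Zfp36l2 peak lower (DESeq2 adjusted p = 0.0321 and 0.0247).

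Lists of genes best known from other tissues or pathways had medians above that of all far peaks, a description with no test. Developmental genes set in gene deserts had 40 far peaks at 17 of 35 genes, none called by edgeR in either direction (median log2 fold change 0.60), with 2 higher and none lower at an unadjusted p under 0.05 and none by DESeq2. Genes of neuronal and synaptic adhesion had 50 far peaks at 17 of 47 matched genes, with no higher call by edgeR (10 at an unadjusted p under 0.05, none by DESeq2) and 1 lower one, the peak beside miR-17-92 (median 0.53). Adgrl2, an adhesion receptor, had 20 of them (median 0.50, no call). Genes of the mechanical response, such as those of AP-1 and integrins, had 23 far peaks at 6 of 37 genes, none higher by edgeR or DESeq2 (2 at an unadjusted p under 0.05) and 1 lower, the Junos peak (median 0.50). The single lower calls were 2.0% of the neuronal and 4.35% of the mechanical far peaks. Over all far peaks, 2.07% were higher and 0.978% lower. At an unadjusted p under 0.05, 533 of the 4293 far peaks were higher and 186 lower, and DESeq2 called 15 higher and 57 lower. A positive log2 fold change was found at 32 of 40 developmental, 37 of 50 neuronal and 15 of 23 mechanical far peaks, and at 68.0% of all far peaks. Unconfined median levels of these 3 lists were 13.5, 12.2 and 13.4 CPM, against 14.4 CPM over all far peaks. Whether level bears on the list medians was not tested. Named peaks of these lists had log2 fold changes of -0.48 nearest Gli3, -0.40 nearest Bmp2 and -0.99 nearest Adgrl3.

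**Figure D5:**
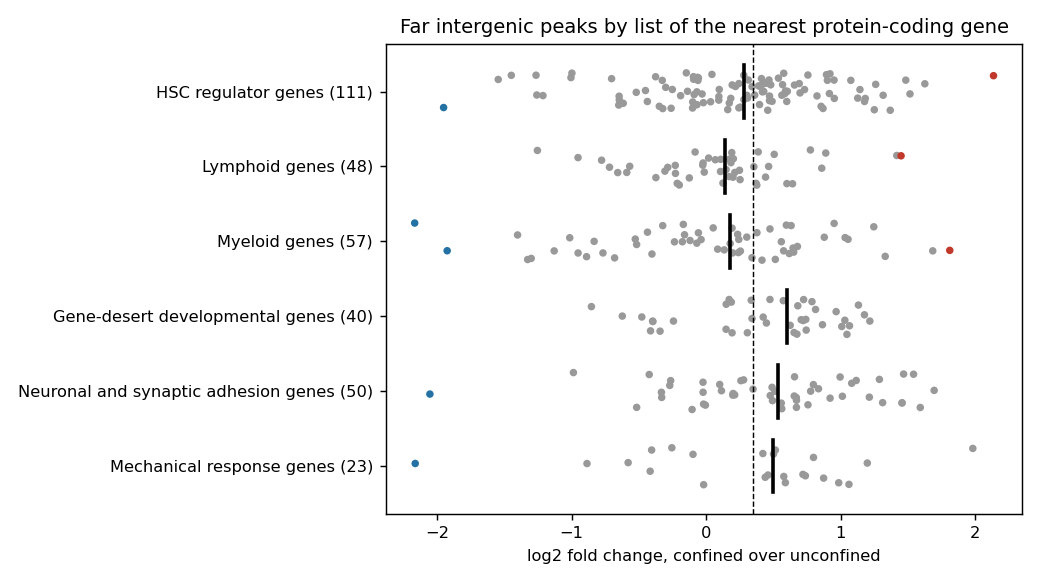
Log2 fold change of confined over unconfined cells (x axis) of far intergenic peaks whose nearest protein-coding gene is on each of 6 lists (y axis, number of peaks in brackets); each point is a peak, red points are higher calls, blue points lower calls, black bars list medians, and the dashed line is the median of all far peaks, 0.35. The medians lie between 0.14 (lymphoid) and 0.60 (gene-desert developmental), and called peaks are single points in lists with a wide spread.

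The higher calls described next are those with the smallest p among calls of the same sign in all 3 batches, a condition that left out peaks nearest Gm8882 and Mtrr. A peak 81.9 kb from Tle1, a Groucho-family corepressor, held 10, 13 and 17 counts in confined and 1, 14 and 13 in unconfined libraries, which is 28.0, 55.9 and 115 CPM in confined and 3.57, 11.5 and 15.2 CPM in unconfined libraries. Its log2 fold change was 2.27 (SE 0.43, edgeR adjusted p = 0.00164, and 0.0166 with the block). A peak 63.2 kb from Hnmt, which breaks down histamine, averaged 380 ± 171 CPM in confined and 35.5 ± 22.8 CPM in unconfined cells (SD, n = 3 each; 3.30, SE 0.71, edgeR adjusted p = 0.00531, and 0.0497 with the block). Peaks nearest Mrps30 (2.17), Kcnj16 (1.79) and Zfp637 (1.78) did not overlap between groups either. Of these, only the Mrps30 call held with the block (edgeR adjusted p = 0.0445, against 0.0574 and 0.0606). The Zfp637 peak rested on confined library 2, with 19.6, 103 and 27.1 CPM in confined libraries 1 to 3. Without confined library 2 its log2 fold change was 0.64.

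For the next 2 higher calls, confined libraries 2 and 3 carried the value. The peak 368 kb from Arid1b, in the lncRNA Gm34259, had 22.4, 254 and 1309 CPM in confined and 17.8, 4.11 and 77.0 CPM in unconfined libraries, an overlap, with library 3 highest in each group (log2 fold change 3.90, SE 0.84, edgeR adjusted p = 0.00531, and 0.0698 with the block). Without confined libraries 2 and 3 its log2 fold change was -0.62. The peak nearest Tmco5 overlapped as well, with 8.41, 64.5 and 74.6 CPM in confined and 3.57, 14.8 and 7.0 CPM in unconfined libraries (2.01, SE 0.48, edgeR adjusted p = 0.00977, and 0.0411 with the block), and gave -0.30 without those libraries. The 1700011C11Rik peak (chr7:71960560-71961259) averaged 28.9 ± 13.1 CPM in confined and 6.54 ± 2.77 CPM in unconfined cells, with no overlap (1.81, SE 0.60, edgeR adjusted p = 0.0472, and 0.0668 with the block). The far peak with the smallest p of all, 99.6 kb from Gm8882, was named after its values were seen and held 5, 26 and 48 counts in confined and 5, 9 and 22 in unconfined libraries (3.04, SE 0.49, edgeR adjusted p = 2.61e-05, and 0.0409 with the block).

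Far peaks clustered along the chromosome. With neighbours joined at start-to-start gaps of up to 25 kb, the 4293 peaks formed 2705 runs, of which 1877 were single peaks, and 33.0% of the peaks were in runs of 3 or more. The largest run, 23 peaks over and beside Firre, had 1 lower call and a median log2 fold change of -0.20. All far peaks had 2.07% higher and 0.978% lower calls and a median of 0.35. The third run, 16 peaks between Ly86 and Rreb1 on chromosome 13, had no call by edgeR or DESeq2 and a median of 0.32. At an unadjusted p under 0.05 it had 1 higher and 2 lower peaks, beside 533 and 186 of all 4293 far peaks. Its mean levels per peak were 22.8, 21.8 and 20.8 CPM in confined and 23.6, 21.4 and 22.1 CPM in unconfined libraries.

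The second run held the most lower calls. It has 19 peaks over 170 kb between Haao, an enzyme of tryptophan breakdown, and Zfp36l2, an RNA-binding protein of blood progenitors (chromosome 17 from 83956305 to 84126681). Mean levels per peak were 28.6, 22.6 and 23.2 CPM in confined and 52.6, 41.7 and 52.3 CPM in unconfined libraries, with no overlap. In it 5 of 19 peaks were lower, the Gm35551 peak and 4 nearest Haao with log2 fold changes of -1.58 to -1.80. A further 1 was higher, in the lncRNA 4933433H22Rik (1.81, SE 0.47, edgeR adjusted p = 0.0147, and 0.0504 with the block). All far peaks had 0.978% lower and 2.07% higher calls. None of the 5 lower calls held with the block (edgeR adjusted p 0.0568 to 0.113). The higher peak averaged 44.0 ± 16.5 CPM in confined and 11.1 ± 1.94 CPM in unconfined cells. DESeq2 called 6 peaks of the run lower and none higher, beside 57 lower and 15 higher of all 4293 far peaks.

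The antigen receptor loci, which are rearranged in lymphocytes and in the annotation are not protein-coding genes, held 88 far peaks. Their mean level per peak was 18.9, 24.7 and 28.5 CPM in confined and 14.8, 14.8 and 12.9 CPM in unconfined libraries, with no overlap, beside 20.7, 24.5 and 24 CPM in confined and 17.3, 18 and 16.6 CPM in unconfined libraries over all far peaks. Of them 2 (2.27%) were called higher and none lower by edgeR, beside 2.07% higher and 0.978% lower over all far peaks. At an unadjusted p under 0.05 there were 18 and 1, and by DESeq2 1 and none, with a median log2 fold change of 0.53. For all 4293 far peaks these counts were 533 and 186, and 15 and 57, with a median of 0.35. The 45 peaks in Igh averaged 22.2 ± 4.98 CPM in confined and 13.4 ± 0.869 CPM in unconfined cells, and the 32 in Tcra averaged 24.9 ± 1.90 CPM in confined and 15.1 ± 1.76 CPM in unconfined cells (SD, n = 3 each). The 4 peaks in Igk had 13.2, 28.2 and 58.5 CPM in confined and 15.6, 14.2 and 11.9 CPM in unconfined libraries, where the groups overlapped and batch 1 went the other way. The higher calls lay in Igh (1.64) and Igk (1.61), with edgeR adjusted p of 0.0221 and 0.0197, and 0.0675 and 0.0706 with the block. This group was chosen after the values were seen and was given no test.

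The farthest peaks lay in long gene deserts. The farthest, 1812 kb from G6pd2, had 16.8, 25.8 and 0 CPM in confined and 7.14, 14 and 14 CPM in unconfined libraries, with overlap (log2 fold change 0.31, edgeR adjusted p = 0.799). Of 2 peaks near Cntnap5a, a neuronal adhesion gene, the one 1781 kb away averaged 23.7 ± 3.02 CPM in confined and 5.74 ± 1.96 CPM in unconfined cells and passed (2.03, SE 0.65, edgeR adjusted p = 0.0406, and 0.0913 with the block). The one 1645 kb away averaged 18.1 ± 1.94 CPM in confined and 8.10 ± 2.27 CPM in unconfined cells and did not (1.24, edgeR adjusted p = 0.241). A peak 1767 kb from Lrrc4c had 0.78 (edgeR adjusted p = 0.490), with overlap. At these levels a confined value rests on 0 to 8 counts.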

How the data were processed

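The authors deposited raw counts per peak for 42632 peaks of 700 bases in 6 ATAC-seq libraries. Per the submitters' processing notes, mm10, SAMtools 1.14, R 4.2.0 and featureCounts were used. Not given in the sources used here are the aligner, the peak caller and the libraries it used, and whether duplicates were removed or reads shifted. Peaks called mainly from deep libraries would miss sites open only in the others. Distances are from peak midpoints to RefSeq genes of GRCm38.p6, which give starts and ends but no exons or UTRs.

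All peaks with at least 1 count entered edgeR 4.0.16 under R 4.3.3, with no other filter (TMM, glmQLFit and glmQLFTest with a group term alone, Benjamini-Hochberg adjustment, threshold 0.05). CPM of single peaks and runs are TMM-scaled, while means, shares and ratios over classes and antigen receptor loci use total counts. Single values per library were compared by exact permutation (SciPy 1.17.1, Python 3.11.15). DESeq2 1.42.0, other scalings, filters, distances and omitted libraries were alternatives. On simulated counts for 42632 peaks, the confined against unconfined fit called 30 of 50 peaks raised 4-fold and 7 of 50 lowered 4-fold. It called 0 of 50 raised 2-fold, 1 of 50 lowered 2-fold and 2 of 42432 unchanged peaks. Changed peaks were drawn only above a minimum total count, with a dispersion of 0.1 and 1 peak pattern for all libraries. These rates therefore do not carry over to far peaks, where uncalled peaks had median totals of 15 confined and 34 unconfined counts.

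The batch labels pair same-numbered libraries. Deviations from group means correlated at r = 0.0437, 0.0597 and -0.0470 within pairs, so the pairing comes from the labels and does not show in the counts. P-values measure the spread between these libraries, which may be technical.

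Peaks named in the text were the 6 with the highest unconfined level, the 8 of smallest p per direction among calls with the same sign in all 3 pairs, the 4 farthest, the 2 with the highest level per gene list and the 3 runs with the most peaks. One peak that the rule selects is not reported here. The peaks at Gm34507 and 1700011C11Rik are outside this rule. Both were called by edgeR and hold a printed promoter window, so they stand for no group. Further peaks are named in group counts or said to be chosen later. Of 221 entries in 7 gene lists, 220 matched. The peak set, rule and lists were chosen with earlier results of these data known.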

Additional observations from a re-analysis of the deposited data

How the results depend on the processing

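The share of counts in far peaks stayed higher in confined cells in every setting (0.653 to 4.31 points), with 2.18 to 3.01 when 1 library was left out and 2.49 with the replicate block. Far calls, higher then lower in each pair, were 89 and 42. They were 56 and 2 with filterByExpr (484 far peaks tested, 18 and 2 shared), 57 and 2 with a filter on mean level, 134 and 22 with total counts, 15 and 57 with DESeq2, 17 and 4 with the replicate block, 161 and 69 at 20 kb, 54 and 21 at 100 kb, and 1 and 0 without confined libraries 2 and 3. With 1 library left out they ranged from 0 to 155 and from 0 to 151, and calls over all peaks from 0 to 1165 and from 1 to 4340. The median log2 fold change of 0.35 was 0.55 with total counts and 0.10 without confined libraries 2 and 3, and 0.21 to 0.38 with 1 library left out. The level relative to other intergenic peaks, 0.005, was -0.028 without confined libraries 2 and 3 and -0.029 to 0.023 with 1 library left out, and the share of peaks over 500 kb away, 0.186 points, was -0.0596 without confined libraries 2 and 3. The distance-class settings that left out libraries were chosen after seeing the data.

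Of 37 named peaks, 22 were called, and 20 of these kept their direction in every setting. Without confined libraries 2 and 3 the direction turned nearest Arid1b (-0.62), Tmco5 (-0.30), Lrrc4c (-0.22) and at the nearer Jun peak (0.45). With filterByExpr it turned nearest Gli3 (0.41), Gata3 (0.05), Ptprc (0.18) and Jun (0.46), with the mean filter nearest Gli3 (0.32), Ptprc (0.08), Jun (0.37) and Gpc5 (0.74), and with total counts nearest Gpc5 (0.17). With 1 library left out, the log2 fold change crossed 0 nearest Lrrc4c (-0.27 to 1.16, negative without confined library 2), nearest G6pd2 (-0.16 to 0.66, negative without confined library 2), at the nearer Jun peak (-2.25 to 0.02, positive without confined library 2) and at the Gpc5 peak 146 kb away (-0.49 to 0.16, positive without confined library 1, confined library 3 or unconfined library 2). Over all settings of the named peaks, 118 values lost a call and 11 gained one, with the direction kept. The cause was not tested. Confined libraries held a median of 6, 5 and 3 counts per far peak, and 17, 54 and 384 far peaks had none, which limits single peaks.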

Other observations

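Some further called far peaks were chosen for their nearest gene after their values were seen, and stand for no group. Lower peaks included one 78.4 kb from Tet2, which encodes an enzyme that oxidises methylated DNA and restrains stem cell self-renewal. It held 10, 9 and 3 counts in confined and 38, 102 and 90 in unconfined libraries, or 29.0 ± 9.23 CPM in confined and 108 ± 26.0 CPM in unconfined cells (SD, n = 3 each), with a log2 fold change of -1.82 (SE 0.54, edgeR adjusted p = 0.0292, and 0.0819 with the batch as a block). Peaks 63.0 kb from Runx2 and 57.9 kb from Max, the partner of MYC, had log2 fold changes of -1.63 and -1.49 (edgeR adjusted p = 0.0353 and 0.0489, and 0.0678 and 0.0738 with the block). Higher peaks included one 188 kb from Cxcl12, the chemokine that retains stem cells in the marrow, with 25.9 ± 6.92 CPM in confined and 5.49 ± 2.44 CPM in unconfined cells (1.96, SE 0.62, edgeR adjusted p = 0.0406, and 0.0767 with the block). The lncRNA Lncenc1 held 1 lower peak (-1.67) and 1 higher peak (1.51), the lower one 209 kb and the higher one 217 kb from Enc1 (edgeR adjusted p = 0.0310 and 0.0445, and 0.0879 and 0.0785 with the block).

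Far peaks were unevenly spread over genes and chromosomes. They had 1641 different nearest protein-coding genes, of which 737 had 1 far peak and 49 had at least 10. Zfp386, beside the Igh locus, was nearest to 31 of them, and Cited2, a coregulator needed by blood stem cells, to 19, with a median log2 fold change of 0.26 and no call for the Cited2 peaks. Their share of a chromosome's peaks was 18.2% on chromosome 13 and 4.81% on chromosome 11.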
